A study of Homo sapiens with 4 samples.

Results

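Long noncoding RNAs were taken from a table of 9885 genes by their symbols. The symbols ended in -AS or -IT with or without a digit, began with LINC or SNHG followed by a digit, or were GAS5, MALAT1, NEAT1, MEG3, PVT1 or DANCR. The rule found 238 genes, of which 139 were antisense (-AS) genes, 82 were LINC genes, 15 were snoRNA hosts (the SNHG genes and GAS5) and 2 were PVT1 and MALAT1. No -IT gene was listed in the table, and neither were NEAT1, MEG3 and DANCR. The table gave whole numbers of events per gene, from 0 to 32, in each library. The kind of event and the program that counted it are not given in the sources used here, so that a number of events was not read as an expression level.

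The 4 libraries were made from 4 human ovarian cancer cell lines, 1 library for each line, to ask what ECM1 (extracellular matrix protein 1) and its isoforms do in these cells. A8 is the parental line HeyA8. A8i is HeyA8 with ECM1 silenced by a stably expressed shRNA. A8i-A was derived from A8i by stable expression of the ECM1a isoform and A8i-B by that of ECM1b, so that both isoform lines carry the silencing as well. Where 4 numbers stand in a row, they follow this order of the lines. The derived lines were made by transduction and selection, and no line with a control shRNA was among the 4 libraries, so that silencing cannot be told apart from transduction and selection. With 1 library for each line there was no replicate check, and no p-value is given. Intervals are 95% exact Clopper-Pearson intervals, which treat each event as independent of the others and reflect no error but that of counting.

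The library totals of the table were 24513, 20535, 22691 and 24236 events, and A8i was lowest. The paper's methods give a range for the amount of sequence obtained, but no number of reads for each library. ECM1 itself had 2 events in every library, which gave no check of the silencing. Of 11 epithelial and ovarian carcinoma markers, 7 were in the table, and KRT19, CDH1, MUC16 and CD24 were not. Most events were those of PAX8 (11, 7, 7 and 7 in A8, A8i, A8i-A and A8i-B) and KRT8 (7, 5, 5 and 6). MSLN had 2, 1, 2 and 3 events, KRT7 had 1, 2, 1 and 1, and KRT18 had 1 in each library. WT1 had 1, 0, 1 and 1 events, and EPCAM was listed at 0 in each. Of the mesenchymal markers, CD44 had 16, 17, 13 and 17 events, FN1 9, 11, 10 and 11, ZEB1 4, 2, 2 and 4, and VIM 3, 1, 3 and 2. The table listed 1 leukocyte marker, CD14, with 1 event in A8i-B, and no endothelial marker. Of the fibroblast markers, FAP (3, 1, 1 and 1) and COL1A1 (1, 0, 1 and 1) were listed.

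Long noncoding RNAs are transcripts without a long open reading frame, and most are spliced like mRNAs. An antisense RNA is transcribed from the strand opposite to a neighbouring gene, often from a shared promoter region, and LINC genes lie between protein-coding genes. The snoRNA hosts are processed differently. Small nucleolar RNAs are cut from their introns and guide the chemical modification of ribosomal and other RNAs, while the spliced exons are exported, and in many hosts these are degraded by nonsense-mediated decay. Many host genes begin with a pyrimidine run called the terminal oligopyrimidine (TOP) motif, which they share with ribosomal protein genes. In tumours, several of these RNAs, such as GAS5, PVT1 and MALAT1, have been studied for their effects on growth.

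The start regions of the hosts are shown first, since the TOP motif is the sequence feature for which host genes are known. Each line gives 20 bases before and 30 bases from the RefSeq start on GRCh38.p14, 5′ to 3′ on the strand of the gene, and the pyrimidines that run on from the start are in capitals. SNHG4, SNHG5 and SNHG12 begin with C followed by 4 pyrimidines, SNHG1 and SNHG17 do not, and LINC01021 and NOP14-AS1, which had large differences between libraries, stand beside them.
SNHG4 (chr5:139274081-139274130, forward strand): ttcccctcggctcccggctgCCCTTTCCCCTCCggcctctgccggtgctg
SNHG5 (chr6:85678704-85678753, reverse strand): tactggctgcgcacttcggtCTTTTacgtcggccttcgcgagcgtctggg
SNHG12 (chr1:28581844-28581893, reverse strand): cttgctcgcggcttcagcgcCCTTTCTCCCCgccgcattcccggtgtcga
SNHG1 (chr11:62855856-62855905, reverse strand): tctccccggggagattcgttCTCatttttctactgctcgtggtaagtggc
SNHG17 (chr20:38435299-38435348, reverse strand): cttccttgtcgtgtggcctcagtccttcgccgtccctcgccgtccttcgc
LINC01021 (chr5:27472272-27472321, forward strand): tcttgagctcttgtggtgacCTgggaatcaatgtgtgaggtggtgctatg
NOP14-AS1 (chr4:2935526-2935575, forward strand): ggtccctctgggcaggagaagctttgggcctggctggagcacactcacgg

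A RefSeq start was found for 196 of the 238 long noncoding RNAs. A start with C followed by 4 pyrimidines, read on the strand of the gene at the start position only, was present at any listed start of 3 of 13 snoRNA hosts (23.1%), 5 of 67 LINC genes (7.46%) and 1 of 115 antisense genes (0.870%). Over all 27305 genes of the RefSeq table, counted in the same way, the share was 5.14%. The run of pyrimidines measured 13 bases in SNHG4, 11 in SNHG12 and 5 in SNHG5, whereas SNHG17 and NOP14-AS1 had none. The RefSeq start may not be the start used in these cells, and a match is a description of the letters only.

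The classes differed in how they were listed across the libraries. Of the 238 long noncoding RNAs, 154 (64.7%), 117 (49.2%), 167 (70.2%) and 143 (60.1%) had at least 1 event in A8, A8i, A8i-A and A8i-B. The same shares over the whole table were 82.2%, 73.7%, 78.9% and 81.6%. In the table A8i-A was below A8, whereas for the long noncoding RNAs A8i-A had the highest share. This rested on genes with 1 event: with at least 2 events, the shares were 36.1%, 26.9%, 34.0% and 37.4% for the long noncoding RNAs and 52.5%, 45.3%, 48.9% and 52.1% for the table, and A8i-A was below A8 and A8i-B in both. By class, the shares with at least 1 event were 61.9%, 44.6%, 64.7% and 59.7% for the antisense genes. For the LINC genes they were 63.4%, 48.8%, 74.4% and 54.9%. The snoRNA hosts had an event for 14 of 15 genes (93.3%) in each library. Their median of summed events was 22.5, against 3 in the antisense and 3 in the LINC genes. The classes were not compared here at equal numbers of events, so that the listing of the hosts cannot be separated from their higher numbers. Of the 229 long noncoding RNAs with an event in any library, 73 (31.9%) had events in 1 library only, against 14.4% of genes in the table. Of these 73, A8i-A held 28, A8 held 21, A8i-B held 14 and A8i held 10, and none was a snoRNA host. Of the 1398 such genes of the table, A8i-A held 336, A8 held 425, A8i-B held 403 and A8i held 234. The remaining 9 long noncoding RNAs were at 0 in all 4 libraries.

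The summed events gave a similar picture. The antisense genes had 228, 145, 241 and 213 events in the libraries in order. The LINC genes had 150, 93, 131 and 154 events. The snoRNA hosts had 90, 83, 87 and 90 events. A8i was lowest in each of these classes, but by 7 events in the hosts and by 83 in the antisense genes relative to A8. As a percent of A8, A8i had 63.6% of the antisense events (51.3 to 78.7%), 62.0% of the LINC events (47.3 to 80.8%) and 92.2% of the host events (67.6 to 126%). Over the whole table the percent was 83.8% (82.2 to 85.3%). The intervals of the antisense and LINC genes lay below the value of the table, and that of the hosts contained it. The interval of the hosts also overlapped those of the antisense and LINC genes, so that a difference between the classes was not resolved at these numbers. The low table total of A8i was part of these values: per 10000 events of the library, A8i had 82.9% of the A8 events of all long noncoding RNAs and 110% of those of the hosts.

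**Figure D1:**
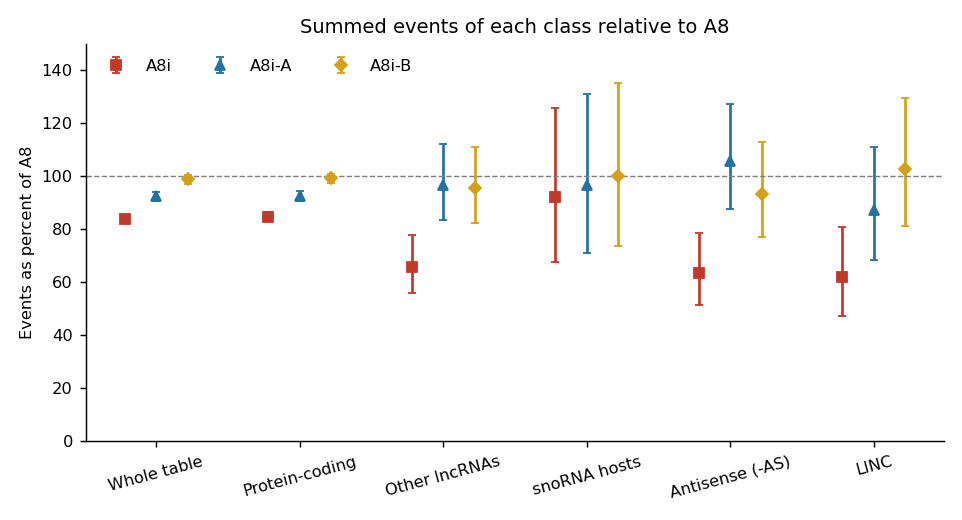
Summed events of each class in A8i, A8i-A and A8i-B (y axis, percent of the events in A8) for the whole table, protein-coding genes, other lncRNAs, snoRNA hosts, antisense genes and LINC genes (x axis). Points are ratios of totals from 1 library for each line and bars are 95% exact Clopper-Pearson intervals; A8i lies at 63.6% for the antisense and 62.0% for the LINC genes, and at 92.2% for the hosts.

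The lower A8i total was not particular to the symbols of the rule. The 298 other genes of the table that GENCODE v44 lists as lncRNA had 370, 244, 358 and 354 events in A8, A8i, A8i-A and A8i-B, and A8i had 65.9% of the A8 events (55.9 to 77.7%). Protein-coding genes had 84.8% (83.2 to 86.5%). All 238 long noncoding RNAs together had 478, 332, 471 and 468 events, and A8i had 69.5% of the A8 events (60.2 to 80.1%). They made up 1.95% of the A8 events of the table (1.78 to 2.13%) and 1.62% of the A8i events (1.45 to 1.80%). In A8i-A their share was 2.08% (1.89 to 2.27%), and in A8i-B it was 1.93% (1.76 to 2.11%). A8i-A and A8i-B had 98.5% (86.6 to 112%) and 97.9% (86.0 to 111%) of the A8 events of the long noncoding RNAs.

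Genes with few events were lower in A8i across the table, so genes were also set side by side by their summed events in A8i-A and A8i-B, which enter neither A8i nor A8. With 0 to 2 such events, A8i had 52.6% of the A8 events over 140 long noncoding RNAs (36.7 to 74.5%) and 73.9% over 4354 genes of the table (70.4 to 77.6%). With 3 to 10, it had 66.2% over 75 long noncoding RNAs (52.5 to 83.1%) and 83.9% over 4440 genes (81.7 to 86.1%). Above 10, it had 81.7% over 23 long noncoding RNAs (65.5 to 102%) and 88.2% over 1091 genes (85.4 to 91.0%). The long noncoding RNAs were below the table at each number of events, and with 3 to 10 events their interval did not contain the value of the table. In the other groups it did. Of the 23 long noncoding RNAs with over 10 such events, 7 were snoRNA hosts, at 95.7% (67.2 to 136%), and 15 were antisense or LINC genes, at 69.4% (51.0 to 94.1%).

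**Figure D2:**
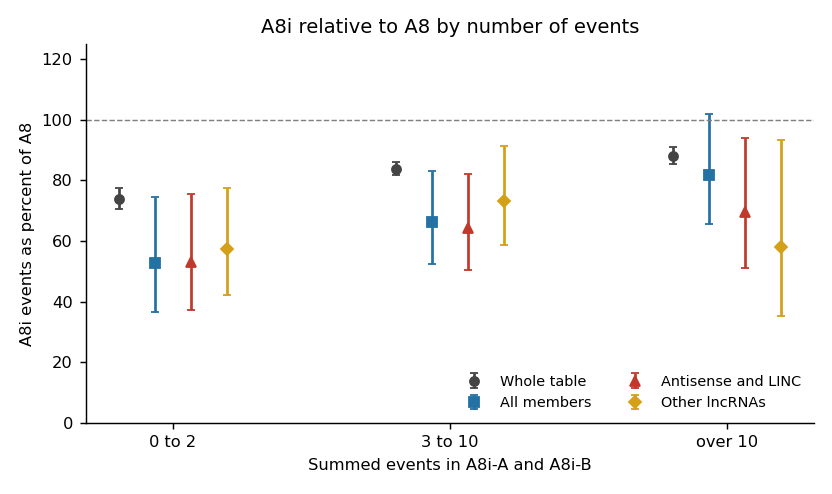
Events in A8i as a percent of those in A8 (y axis) for genes grouped by their summed events in A8i-A and A8i-B (x axis). Points are ratios of totals for the whole table, all 238 long noncoding RNAs, the antisense and LINC genes and the other lncRNAs, and bars are 95% exact Clopper-Pearson intervals; the long noncoding RNAs lie at 52.6%, 66.2% and 81.7% and the table at 73.9%, 83.9% and 88.2%.

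The numbers per snoRNA host were high and similar across libraries for several genes. GAS5, the growth arrest-specific host of C/D box snoRNAs that lies on the reverse strand of chromosome 1 (173827697 to 173838020, GRCh37), had 15 events in each of the 4 libraries. In the RefSeq genes, 11 snoRNA genes lie within its span. SNHG1, which contains 9, had 8, 8, 9 and 9 events in A8, A8i, A8i-A and A8i-B. SNHG8 had 3 events and SNHG6 had 2 events in each library. The same number of events in all 4 libraries was thus found for 3 of the 14 hosts with an event (21.4%) and for 12 of the 229 long noncoding RNAs (5.24%), against 13.8% of genes in the table.

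Other hosts differed between libraries. SNHG5, the host of SNORD50A and SNORD50B, had 14 events in A8 and in A8i-A, 8 in A8i and 9 in A8i-B. A8 and A8i-A were thus high in SNHG5 and A8i and A8i-B low. SNHG17, the host of SNORA71 genes, had 15, 13, 13 and 9 events in A8, A8i, A8i-A and A8i-B, and was lowest in A8i-B. SNHG15 had 7, 6, 10 and 11 events and was higher in both isoform lines. SNHG14, a long transcript of the imprinted chromosome 15 region that runs antisense to UBE3A, had 5, 9, 4 and 9 events, high in A8i and A8i-B and low in A8 and A8i-A. SNHG12 had 5, 7, 5 and 8 events, and was higher in A8i and A8i-B. These hosts were set together by their values, and no interval was computed for single hosts. The 84 snoRNA genes in the span of SNHG14 were the largest number in any host.

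The remaining hosts had few events. SNHG11 had 6, 4, 4 and 6 events in A8, A8i, A8i-A and A8i-B, and SNHG16 had 4, 3, 4 and 4. SNHG21 had 2, 3, 1 and 2 events, SNHG4 had 3, 1, 2 and 1, and SNHG7 had 1, 1, 1 and 2. SNHG10 was at 0 in all 4 libraries. PVT1, the neighbour of MYC that is often gained with it in tumours, had 9 events in A8 and 11 in each of the other libraries. MALAT1, an abundant nuclear RNA that is mostly unspliced, had 1 event in A8 and in A8i-A and 0 in the others.

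**Figure D3:**
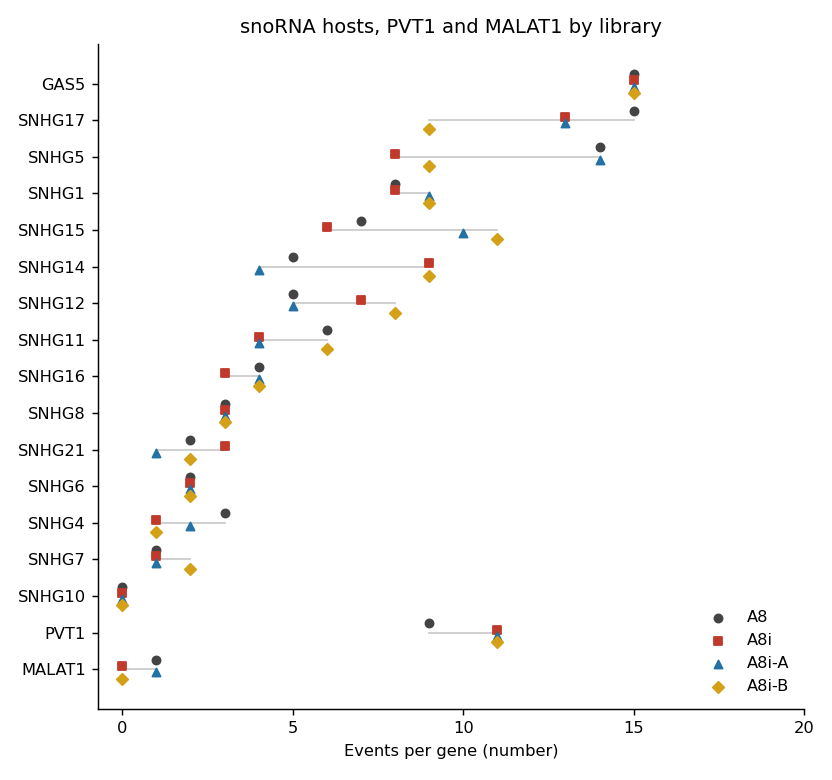
Events per gene (x axis, number) in each library for the 15 snoRNA hosts, PVT1 and MALAT1 (y axis). Each symbol is 1 library and grey lines span the lowest to the highest library; GAS5 has 15 events in all 4 libraries, whereas SNHG5 has 14 in A8 and A8i-A, 8 in A8i and 9 in A8i-B.

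The number of events was compared with the number of splice junctions that the annotation lists. Over the 14 hosts with an event, the rank correlation of summed events with annotated junctions was 0.73 (Spearman's rho), and it was 0.34 over 9653 genes of the table. It was 0.28 over 136 antisense genes and 0.16 over 75 LINC genes. These genes share the same 4 libraries and are not independent replicates. The hosts had a median of 13 annotated junctions, the antisense genes 11 and the LINC genes 12, against 17 in the table.

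Among the antisense genes, the gene with the most events was also a snoRNA host by position. LRRC75A-AS1 had 18 events in A8, A8i-A and A8i-B and 16 in A8i. GENCODE and RefSeq name it SNHG29, and 3 snoRNA genes, SNORD49A, SNORD49B and SNORD65, lie within it. GAS5 was the gene with the most similar numbers to it, with a summed absolute difference of 10 events over the 4 libraries. In all, 20 long noncoding RNAs had a RefSeq snoRNA gene in their span, of which 13 were hosts by symbol, 5 were antisense and 2 were LINC genes. These 20 genes had 123, 108, 116 and 117 events in A8, A8i, A8i-A and A8i-B, and A8i had 87.8% of the A8 events (67.2 to 115%). The other 218 had 355, 224, 355 and 351 events, and A8i had 63.1% (53.1 to 74.8%). The intervals overlapped.

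NOP14-AS1, TPT1-AS1 and PSMA3-AS1 had the largest gains of events among the antisense genes in A8i-A relative to A8i, and were grouped after their values had been seen. NOP14-AS1, opposite the gene of a ribosome assembly factor, had 2, 1, 15 and 8 events in A8, A8i, A8i-A and A8i-B. On the log2 scale of (events + 1), the value of A8i-A was higher than that of A8i by 3, the largest difference of any long noncoding RNA in that comparison. The ratio of 15 events to 1 had an interval from 2.31 to 631. TPT1-AS1, beside the gene of translationally controlled tumour protein, had 9, 7, 18 and 8 events. PSMA3-AS1, opposite the gene of a proteasome subunit, had 4, 5, 13 and 9 events. The ratio of A8i-A to A8i was 2.57 in TPT1-AS1 (1.02 to 7.28) and 2.60 in PSMA3-AS1 (0.870 to 9.31). A8i-A was highest in all 3, and A8i-B was above A8 in NOP14-AS1 and PSMA3-AS1 but not in TPT1-AS1. NOP14-AS1 and PSMA3-AS1 were close in pattern, with a summed absolute difference of 9 events.

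These 3 genes had 15, 13, 46 and 25 events together in A8, A8i, A8i-A and A8i-B. All antisense genes had 166% of the A8i events in A8i-A (135 to 206%), and without the 3 genes the value was 148% (118 to 186%). In A8i-A vs. A8i-B the antisense genes were at 113% (93.7 to 137%), and without the 3 genes at 104% (84.5 to 127%). Over the whole table A8i-A had 110% of the A8i events (108 to 113%) and 93.6% of the A8i-B events (91.9 to 95.3%). In A8i-A vs. A8i-B both antisense intervals contained equal totals of the isoform lines. That of all antisense genes lay just above the value of the table, and that without the 3 genes contained it.

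Several other antisense genes were highest in A8. PCBP1-AS1, beside the gene of a poly(rC)-binding protein, had 14, 6, 11 and 11 events in A8, A8i, A8i-A and A8i-B. GENCODE lists 152 junctions for it. APCDD1L-AS1 had 8, 4, 6 and 7 events and TMEM161B-AS1 had 9, 4, 5 and 4. THAP9-AS1 had 7, 5, 5 and 5 events. RASSF8-AS1 had 6, 5, 5 and 6, with A8 and A8i-B level. NUTM2B-AS1 had 7, 9, 4 and 5 events, with A8i at the top. It has a similar copy, NUTM2A-AS1, so that reads may be shared between them.

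The LINC genes with the most events were led by LINC01583, with 7, 6, 8 and 6 events in A8, A8i, A8i-A and A8i-B. LINC01021, named PURPL in GENCODE and known as a target of p53, had 11, 2, 5 and 5 events. LINC00969 had 10, 3, 7 and 6 events and LINC00958 had 8, 3, 5 and 7. In LINC01021, LINC00969 and LINC00958 A8 was highest and A8i lowest, and the isoform lines lay between. LINC01021 was closest to LINC00969 and TMEM161B-AS1 in its numbers, with a summed absolute difference of 5 events from each.

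Some other LINC genes differed between the isoform lines. LINC01184 had 8, 6, 3 and 7 events in A8, A8i, A8i-A and A8i-B and LINC01322 had 8, 4, 3 and 8, both lowest in A8i-A. LINC01605 had 5, 5, 2 and 5 events, and also was lowest in A8i-A. LINC00623 had 2, 5, 8 and 6 events, with A8 at the bottom. LINC01002 had 6, 3, 5 and 6 events and LINC00963 had 5, 4, 5 and 4. LINC00623 and LINC01002 lie in duplicated regions, so that their reads may be shared with other copies. Copies were not searched for among the other genes, so that this may hold for some of them as well.

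**Figure D4:**
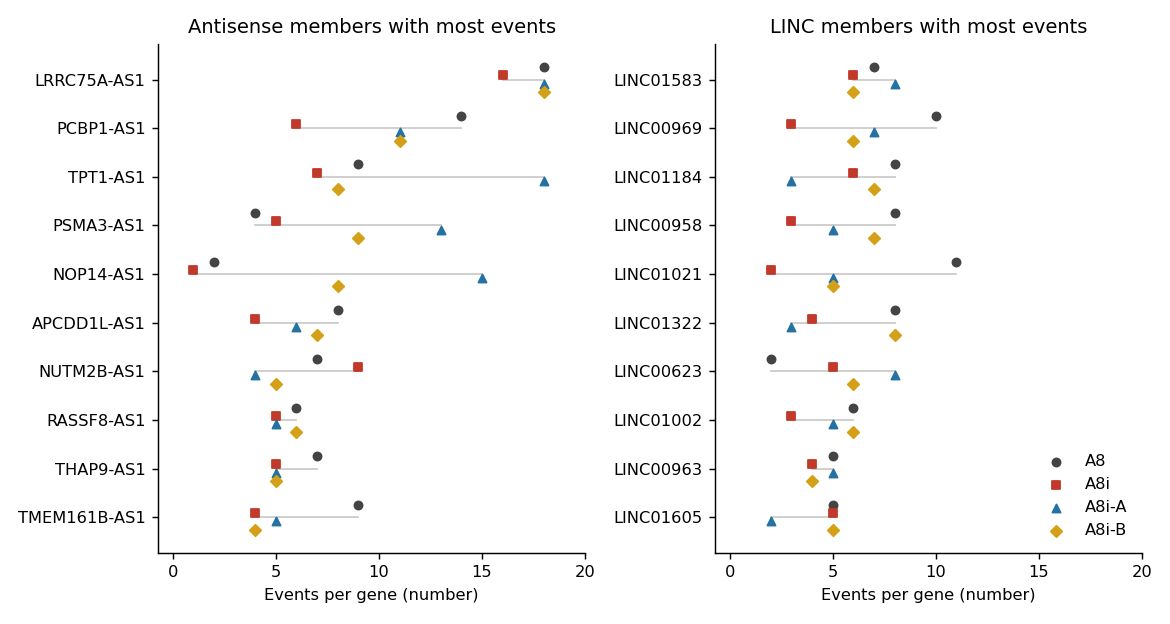
Events per gene (x axis, number) in each library for the 10 antisense genes (left) and the 10 LINC genes (right) with the most summed events (y axis). Each symbol is 1 library and grey lines span the lowest to the highest library; NOP14-AS1 runs from 1 event in A8i to 15 in A8i-A, and LINC01021 from 2 in A8i to 11 in A8.

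The LINC genes were spread more thinly in A8i-A than in A8i-B. In A8i-A, 61 of 82 LINC genes were listed and 35 of these had exactly 1 event (57.4%, 44.1 to 70.0%). In A8i-B, 45 were listed and 11 of these had exactly 1 event (24.4%, 12.9 to 39.5%). A8 had 25 of 52 and A8i 15 of 40. Over all genes, exactly 1 event was found for 38.1% of those listed in A8i-A and 36.2% of those listed in A8i-B. The antisense genes had 48 of 90 in A8i-A and 42 of 83 in A8i-B. This split by exactly 1 event was chosen after the values had been seen.

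ECM1 silencing was described by A8i vs. A8. A gene counted as past the fold where its number of events plus 1 differed at least 2-fold, which 1 event against 0 already reached. Of 173 long noncoding RNAs with an event in either library, 71 were lower in A8i (41.0%) and 22 were higher (12.7%), against 22.8% lower and 9.72% higher of 8769 genes in the table. By class, 43 of 98 antisense genes and 26 of 59 LINC genes were lower, whereas 1 of 14 snoRNA hosts, SNHG4, was lower and no host was higher. In either direction, 37 antisense and 18 LINC genes had 1 event against 0, and no host did. The classes thus did not reach the fold on equal terms. With at least 2 events apart as well, 30 long noncoding RNAs were lower (17.3%) and 7 were higher (4.05%), against 11.4% and 3.9% in the table. Scaled to the mean library total, 23 were lower and 23 were higher of the 173, against 8.09% lower and 10.1% higher in the table. There, 1 event in A8 against 0 in A8i no longer reached 2-fold, whereas 1 in A8i against 0 in A8 still did. The scaled counts thus cannot show whether lower genes were in excess. Unscaled, the median log2 ratio was -0.58 over the long noncoding RNAs and 0 over the table. Scaled, it was -0.44 over the long noncoding RNAs.

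The lowest ratios in A8i vs. A8 were those of CCDC18-AS1 and NDUFA6-AS1, followed by LINC01021 in a tie with GMDS-AS1, GNAS-AS1, LINC00511, LINC01089 and ZNF337-AS1. CCDC18-AS1 had 5, 0, 3 and 4 events in A8, A8i, A8i-A and A8i-B. NDUFA6-AS1 had 4 events in A8 and 0 in each of the derived lines. The highest ratios were those of LINC00839 (0, 2, 3 and 1 events), LINC00888 (0, 2, 1 and 0) and LINC01629 (0, 2, 1 and 0), with CKMT2-AS1 (0, 2, 0 and 0) at the same value. RefSeq names LINC00888 as SNHG33, and 3 snoRNA genes lie in its span.

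Of the 238 long noncoding RNAs, 11 were at least 2 events lower in A8i than in each of the other 3 libraries. This share was close to that of the table, 404 of 9885 genes (4.09%). The 11 comprised PCBP1-AS1, LINC01021, LINC00969, LINC00958, APCDD1L-AS1, LINC01002, LRRC75A-AS1 and CCDC18-AS1 with the values given above. The other 3 were GMDS-AS1 (3, 0, 3 and 3 events in A8, A8i, A8i-A and A8i-B), LINC01089 (3, 0, 4 and 2) and GNAS-AS1 (3, 0, 4 and 2), an antisense transcript of the imprinted GNAS locus. A8i was strictly lowest in 34 of the 238 long noncoding RNAs and in 1446 of the 9885 genes of the table, which are again close shares. CKMT2-AS1, with 2 events in A8i and 0 elsewhere, and NUTM2B-AS1 were at least 2 events higher in A8i than in each other library, as were 244 of the 9885 genes of the table.

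Re-expression of ECM1a was described by A8i-A vs. A8i. Of 188 long noncoding RNAs, 82 were higher in A8i-A (43.6%) and 28 were lower (14.9%), against 20.8% higher and 12.7% lower of 8610 genes in the table. With at least 2 events apart, 28 were higher (14.9%) and 9 were lower (4.79%), against 9.58% and 5.53%. Genes with 1 event in 1 of the libraries and 0 in the other were 73 of the 188 and 1583 of the 8610 genes of the table. After NOP14-AS1, the highest ratios were those of GNAS-AS1 and LINC01089, each with 4 events against 0. The lowest were those of OR2A1-AS1 (6, 2, 0 and 1 events in A8, A8i, A8i-A and A8i-B), CKMT2-AS1 and LINC00869 (4, 4, 1 and 4). No snoRNA host was higher, and SNHG14 and SNHG21 were lower.

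Re-expression of ECM1b was described by A8i-B vs. A8i. Of 168 long noncoding RNAs, 63 were higher in A8i-B (37.5%) and 28 were lower (16.7%), against 23.1% higher and 10.4% lower of 8735 genes. With at least 2 events apart, 36 were higher (21.4%) and 8 were lower (4.76%), against 12.1% and 4.48%. Scaled to the mean library total, 30 were higher and 28 were lower of the 168, against 8.29% and 10.7% in the table. With this scaling 1 event in A8i-B against 0 in A8i no longer reached 2-fold, whereas the reverse still did. The nearly even split thus did not treat both directions alike. The median log2 ratio was 0.32 unscaled and 0.14 scaled. LINC00704, named MANCR in GENCODE and described as a mitosis-associated lncRNA, had 1, 0, 2 and 7 events in A8, A8i, A8i-A and A8i-B. It had the highest ratio, followed by LINC01204 (1, 0, 1 and 5 events) and CCDC18-AS1. The lowest were STXBP5-AS1 (2, 5, 4 and 1 events), LURAP1L-AS1 (1, 2, 2 and 0) and ENTPD1-AS1 (1, 2, 1 and 0), with CKMT2-AS1, LINC00888 and LINC01629 at the same value. All 14 hosts stayed within 2-fold, and none of them had 1 event against 0. The comparisons of A8i-A and A8i-B with A8i share the A8i library, whose total is the lowest.

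The isoforms were compared directly in A8i-A vs. A8i-B. Of 192 long noncoding RNAs, 58 were higher in A8i-A (30.2%) and 43 were lower (22.4%), against 13% higher and 17.9% lower of 8928 genes. With at least 2 events apart, 15 were higher (7.81%) and 24 were lower (12.5%), against 5.68% and 9.2%. Scaled to the mean library total, 58 were higher and 16 were lower, against 13.0% and 6.16%. In these scaled counts 1 event in A8i-B against 0 in A8i-A no longer reached 2-fold, whereas the reverse still did. The split thus depended on the smallest difference counted and on the scaling. Unscaled, the median log2 ratio was 0 over the long noncoding RNAs and over the table. LINC00174 (0, 0, 3 and 0 events in A8, A8i, A8i-A and A8i-B), LURAP1L-AS1 and PTOV1-AS2 (1, 0, 2 and 0) were highest in A8i-A relative to A8i-B, the last 2 in a tie with LINC01588, TMEM92-AS1 and VIM-AS1. The lowest were LINC01001 (6, 1, 1 and 7), LINC00094 (0, 0, 0 and 3) and LINC00894 (0, 0, 0 and 3). Together with NDUFA6-AS1, the genes LINC00174, LINC00094 and LINC00894 were the 4 long noncoding RNAs with at least 3 events in 1 library and none in the others.

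The sense gene was listed for 88 of the 139 antisense genes, and every pair lay on opposite strands in GENCODE. Of the pairs, 71 overlapped and 37 had starts within 1000 bases of each other. The strand of the reads and of the counting is not given in the sources used here, so that events of an antisense gene and of its sense gene cannot be told apart where they overlap. The pairs of TPT1 and ZNF561 do not overlap and start close together, which is why their start regions are shown. The windows are on GRCh37, 5′ to 3′ on the forward strand, and run from the first 20 bases of the sense gene, which is on the reverse strand, to the first 20 bases of the antisense gene. Both ends are in capitals and the bases between are in lower case.
TPT1 and TPT1-AS1 (chr13:45915400-45915499, forward strand): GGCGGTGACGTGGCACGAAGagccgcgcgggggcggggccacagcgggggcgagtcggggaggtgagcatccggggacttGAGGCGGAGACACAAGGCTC
ZNF561 and ZNF561-AS1 (chr19:9731893-9731944, forward strand): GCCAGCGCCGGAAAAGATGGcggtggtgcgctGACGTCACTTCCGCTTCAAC

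TPT1 and TPT1-AS1 are 60 bases apart and ZNF561 and ZNF561-AS1 are 12 bases apart. TPT1 had 6 events in each library, whereas TPT1-AS1 had 9, 7, 18 and 8 in A8, A8i, A8i-A and A8i-B. ZNF561, a zinc finger gene, had 9, 1, 13 and 12 events, whereas ZNF561-AS1 had 2, 2, 2 and 4. In each pair 1 gene differed between libraries and the other had the same number in at least 3 of them.

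The other 4 pairs with the most events overlapped. PSMA3 had 6, 4, 6 and 6 events in A8, A8i, A8i-A and A8i-B beside the 4, 5, 13 and 9 of PSMA3-AS1. TMEM161B had 4, 4, 5 and 5 events beside the 9, 4, 5 and 4 of TMEM161B-AS1. EML2, which encodes a microtubule-associated protein, had 17, 13, 10 and 11 events, and EML2-AS1 had 1 event in A8 and in A8i-A and 0 in the others. PXN, which encodes the focal adhesion adaptor paxillin, had 10, 10, 13 and 9 events, and PXN-AS1 had 1 event in A8 and in A8i-A and 0 in the others.

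Over the 88 pairs, the antisense genes had 134, 83, 158 and 137 events in A8, A8i, A8i-A and A8i-B and the sense genes 220, 157, 206 and 202. A8i had 61.9% of the A8 events of the antisense genes (46.5 to 82.1%) and 71.4% of those of their sense genes (57.8 to 88.0%). Of the 50 antisense genes in pairs that differed between A8i and A8, 32 had a sense gene that differed as well, in 17 cases in the same direction. In A8, 42 of 55 sense genes had an event where the antisense gene was listed (76.4%, 63.0 to 86.8%), and 22 of 33 where it was not (66.7%, 48.2 to 82.0%). In A8i these were 25 of 40 (62.5%, 45.8 to 77.3%) and 37 of 48 (77.1%, 62.7 to 88.0%). In A8i-A the shares were 80.4% and 84.4%, and in A8i-B they were 71.7% and 85.7%. With at least 1 event in the sense gene, the share was thus higher with the antisense gene listed in A8 only. With at least 2 events in the sense gene, the share was higher in A8i-A as well (51.8% against 43.75%). The intervals overlapped in each library, so that a relation between the genes of a pair was not resolved at these numbers.

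Genes that act on these RNAs were read from lists. The proteins of snoRNP particles, which bind and mature snoRNAs, were 6 of 8 listed, with 18, 13, 16 and 19 events in A8, A8i, A8i-A and A8i-B. NOP56, a core protein of C/D box particles, had 7, 3, 4 and 5 events and was the only one of the 6 past the fold in A8i vs. A8. FBL, the methyltransferase fibrillarin, had 4, 4, 4 and 5 events, NOP58 had 3, 2, 3 and 3, and DKC1, the pseudouridine synthase dyskerin, had 2, 2, 3 and 3. Of 10 nonsense-mediated decay genes, 7 were listed, with 19, 11, 17 and 15 events, and 3 were lower and none higher in A8i vs. A8, where 22.8% of all genes were lower and 9.72% higher. UPF3A had 5, 2, 4 and 4 events, the helicase UPF1 had 2, 3, 3 and 2, and SMG9 had 3, 0, 3 and 2. A8i had 57.9% of the A8 events of this list (24.9 to 128%), an interval that contained the value of the table.

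All 10 paraspeckle and speckle proteins were listed, with 37, 34, 32 and 37 events in A8, A8i, A8i-A and A8i-B. SRRM1 had 9, 8, 6 and 7 events, SRRM2 had 7, 5, 3 and 6, and DAZAP1 had 4, 5, 4 and 4. PSPC1, with 1, 0, 1 and 1 events, was lower and none of the 10 was higher in A8i vs. A8. Of 21 lncRNAs with well-known names, 8 were listed under those symbols. CYTOR, another of the 21, is in the table as LINC00152 (4, 4, 3 and 2 events) and is counted above among the LINC genes. ZFAS1, another snoRNA host, and TP53TG1 had 3 events in each library and TUG1 had 2, similar to SNHG8 and SNHG6. JPX, a gene of the X-inactivation centre, had 7, 7, 5 and 5 events and HCG18 had 6, 3, 4 and 6.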

How the data were processed

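RNA-seq of 4 HeyA8-derived cell lines was analysed, 1 library each. Per the paper's methods, TRIzol-extracted RNA was sequenced from both ends, and the authors used Trim Galore before mapping to hg19. The submitters' processing notes name Cufflinks 2.2.1 and the mouse build GRCm38, whereas the gene identifiers of the table are human. The deposited values are whole numbers of events per gene, not scaled to depth, and the number of reads behind them is not given for each library. Columns of per-sample values left unused were 0. Genes were joined to GENCODE v44 lifted to GRCh37 by Ensembl identifier (9818 of 9885 genes, 236 of the 238 members) and to RefSeq by symbol (all 238).

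For a ratio of totals, the 95% exact Clopper-Pearson interval of the first total's share of both was turned into an interval of the ratio. Log2 ratios used a pseudocount of 1, over genes with an event in either library, which understates changes of genes with few events. The members and lists were chosen with earlier results of these data known. Named were every snoRNA host, PVT1 and MALAT1, the 10 antisense and 10 LINC genes with the most events, the 3 highest and 3 lowest ratios of each comparison, genes at least 2 events lower or higher in A8i than in each other library, genes with at least 3 events in 1 library only, the 6 sense and antisense pairs with the most events, and the 4 genes of a list with the most events; others were chosen after their values were seen. Some genes of the lists are not reported here. Other pseudocounts, folds, filters and scalings were tried as alternatives. The scripts were tested on simulated data. Python 3.11.15, numpy 2.4.6, pandas 2.3.3, scipy 1.17.1 and matplotlib 3.10.9 were used.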

Additional observations from a re-analysis of the deposited data

How the results depend on the processing

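Each cell line had 1 library, so no value has a replicate error, and 1 event of difference moved most counts. Per 10000 events of the library, A8i had 82.9% of the A8 events of all members and 110% of those of the snoRNA hosts, which turned the direction of the hosts. Requiring at least 2 events, the shares of members listed were 36.1%, 26.9%, 34.0% and 37.4%, with the libraries in the order A8, A8i, A8i-A and A8i-B. At least 3-fold apart, the members higher and lower were 4 and 19 for A8i vs. A8, and 19 and 2 for A8i-A vs. A8i. For A8i-B vs. A8i they were 28 and 6, and for A8i-A vs. A8i-B 6 and 9. The shares of all genes higher and lower were then 1.80% and 6.60%, 4.91% and 2.74%, 6.56% and 2.1%, and 2.72% and 4.57%. Among the 83 members with an event in all 4 libraries they were 3 and 12, 11 and 7, 11 and 3, and 7 and 14, in the same order, and the median log2 ratio of A8i vs. A8 was 0. Of the 5986 such genes of the table, 3.04% and 7.77%, 7.27% and 4.36%, 8.60% and 3.54%, and 4.21% and 6.63% were higher and lower. At least 2-fold and 2 events apart, a setting chosen after seeing the data, they were 7 and 30, 28 and 9, 36 and 8, and 15 and 24. Scaled to the mean library total, the members higher and lower were 23 and 23, 77 and 28, 30 and 28, and 58 and 16, against shares of all genes of 10.1% and 8.09%, 17.8% and 12.7%, 8.29% and 10.7%, and 13.0% and 6.16%. The first and the third of these splits became even or nearly so. In A8i-A vs. A8i-B the median log2 ratio was 0.063. With that scaling 1 event in A8 or A8i-B against 0 no longer reached 2-fold, whereas 1 event in A8i or A8i-A against 0 still did. The first, the third and the last of these splits thus lost such genes in 1 direction only. With at least 2 events in the sense gene, the share by library of listed antisense genes with such a sense gene was 56.4%, 30%, 51.8% and 39.6%. For antisense genes at 0 the share was 39.4%, 43.75%, 43.75% and 62.9%. The other 34 values were not counted as moved, although some shifted as far as values given here. The medians of both isoform lines against A8i also fell to 0 among members with an event in all 4 libraries. They had been 0.58 for ECM1a and 0.32 for ECM1b. Among such members, A8i had 77.3% of the A8 antisense events, against 63.6% over all antisense genes. No paired analysis was possible because each cell line has 1 library and no result comes from a test.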

Other observations

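Of the 238 genes, 45 carry another symbol in GENCODE v44 than in the table, and 22 of these are now named as divergent transcripts (-DT). The divergent transcripts had 56, 25, 41 and 35 events in A8, A8i, A8i-A and A8i-B, and A8i had 44.6% of the A8 events (26.7 to 72.7%, exact Clopper-Pearson). GENCODE lists 5 of the 238 genes as protein-coding. LINC01420, the NBDY gene, had 2 events in each library. LINC00116, the mitochondrial microprotein gene MTLN, had 1 event in A8 and in A8i and 0 in the others. LINC00094 (BRD3OS) had 3 events in A8i-B only, SPTY2D1-AS1 (MISFA) had 1 event in A8i-B only, and LINC01125 (C2orf92) had 1 event in A8i-A only. A further 11 genes are listed as transcribed pseudogenes, among them PSMD5-AS1 with 3, 1, 7 and 2 events. The 219 genes listed as lncRNA had 460, 309, 439 and 432 events, and A8i had 67.2% of the A8 events (58.0 to 77.8%).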
